A study of Mus musculus with 8 samples.

Results

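The expression of 10 genes of 4 stress-related peptide systems was followed in the ventral hippocampus of mice given corticosterone. They are the corticotropin-releasing hormone genes *Crh*, *Crhbp*, *Crhr1* and *Crhr2*, the pituitary adenylate cyclase-activating polypeptide (PACAP) genes *Adcyap1* and *Adcyap1r1*, the opioid receptor genes *Oprm1*, *Oprk1* and *Oprl1*, and the oxytocin receptor gene *Oxtr*. The symbols were taken as listed and mapped to Ensembl identifiers, which gave 10 of the 50686 genes in the count table, and all 10 had reads in all 8 libraries. All mice were male, 8-week-old and of the strain labelled C57B6/J, were housed in groups of 4, and received 1 injection in the morning. The vehicle group (n = 4, replicates 1 to 4) was injected with vehicle, and the corticosterone group (n = 4, replicates 5 to 8) with 3 mg/kg corticosterone, the main glucocorticoid of rodents. The ventral hippocampus was collected 3 h after injection, and mRNA-enriched RNA of 1 mouse per library was sequenced. No source names a batch, and there was no uninjected group, so the values describe corticosterone against the injection of vehicle.

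Neuropeptides are cut from larger precursors, stored in dense-core vesicles and released to act on G protein-coupled receptors. The peptide and its receptor are often made by different cells. CRH is the peptide that starts the hormonal stress response in the hypothalamus, and in the hippocampus it is made mainly by inhibitory interneurons. The CRH receptors and the PACAP receptor raise cAMP through Gs, whereas the opioid receptors lower it through Gi, and the oxytocin receptor acts mainly through Gq.

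The libraries held 17492159 to 19931987 reads on genes. The first principal component held 33.7% of the variance and placed corticosterone replicate 5 (score -19.2) among the vehicle libraries (-24.8 to 5.11) and apart from corticosterone replicates 6 to 8 (18.9 to 23.5), so the log2 fold changes of the 10 genes are also given without that library. The share of reads that fell on more than 1 gene was 1.48% in that library, inside the vehicle range of 1.40% to 1.67%, against 1.25% to 1.28% in replicates 6 to 8. Its share of reads without a unique alignment, 0.0536%, lay between the vehicle libraries (0.0699% to 0.111%) and replicates 6 to 8 (0.0420% to 0.0443%). The 17 markers of dentate granule cells and of CA1, CA2 and CA3 pyramidal cells and the 10 markers of GABAergic interneurons had reads in all 8 libraries. The interneuron markers summed to 1501 to 1691 CPM (reads of a gene scaled to the TMM-normalized library total) in vehicle and 1479 to 1682 CPM in corticosterone libraries. The 4 microglial markers summed to 226.8 to 237.8 CPM in vehicle and 159 to 217.5 CPM in corticosterone libraries, and the 4 endothelial markers, all with negative log2 fold changes, had sums of 91.5 to 96.4 and 75.7 to 86.0 CPM. The 4 oligodendrocyte markers had negative log2 fold changes, 2 of them at an unadjusted p under 0.05, with sums of 2517 to 4390 and 2410 to 3040 CPM. Of the 5 dentate granule cell markers, 2 had an unadjusted p under 0.05, both lower, and 2 had positive log2 fold changes. *C1ql2* did not overlap between the groups (log2 fold change -0.42, adjusted p = 0.282, edgeR), nor did 2 of 4 microglial and 1 of 4 astrocyte markers, all lower. Higher at that unadjusted p were 2 of 5 choroid plexus, 1 of 6 striatum-type, 1 of 4 CA3 and 1 of 4 CA2 markers. Lower at it were also 2 of 4 microglial and 1 of 4 each of astrocyte, endothelial, erythrocyte, CA1 and CA2 markers. The background was 9.03% of all genes tested at that p and 3.66% without overlap. edgeR called 0 of these markers over all 8 libraries. Without corticosterone replicate 5 it called 4 of 4 microglial, 2 of 4 oligodendrocyte, 1 of 4 endothelial and 2 of 10 interneuron markers, all lower. Also lower were 1 of 5 dentate, 1 of 4 CA1 and 1 of 4 CA2 markers. It called 1 of 6 striatum-type neuron markers, as higher, and 0 of the choroid plexus, astrocyte, CA3 and erythrocyte markers. The background of that fit was 10.2% of all genes tested. The part of these markers in the values below, with or without that library, was not tested. In whole tissue, fewer cells of a type and less RNA per cell cannot be told apart. *Fkbp5*, a glucocorticoid-induced co-chaperone of the glucocorticoid receptor, rose from 102 ± 15.7 to 173 ± 8.31 CPM (SD, n = 4 each), and it was the only gene called by the quasi-likelihood test of edgeR (log2 fold change 0.76, adjusted p = 0.0481). In corticosterone replicate 5 *Fkbp5* was at 166.4 CPM, among the corticosterone libraries (165.9 to 183.3 CPM) and above all vehicle libraries (89.2 to 123.9 CPM). The adjusted p of *Fkbp5* ranged from 0.00224 to 0.331 when single libraries were left out.

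Levels between genes were compared in TPM, which divides the reads by the exon length of each gene before scaling to the library total. The PACAP receptor gene *Adcyap1r1* was by far the most abundant of the 10, at 152.6 ± 10.97 TPM (SD, n = 8), above 93.0% of the genes tested. *Crhbp*, which encodes the secreted protein that binds and neutralizes CRH, followed at 62.2 ± 6.15 TPM, and *Oprl1*, the nociceptin receptor, at 52.6 ± 4.34 TPM. *Crhr1* stood at 13.3 ± 2.05 TPM and *Oxtr* at 11.7 ± 1.33 TPM, and *Crhr1* exceeded *Oxtr* in 6 of 8 libraries, so these neighbours did not differ beyond their spread. The peptide genes *Adcyap1* and *Crh* were lower than the main receptor of their own system, at 5.88 ± 1.19 and 3.42 ± 1.35 TPM. At the bottom were *Crhr2* at 1.18 ± 0.233, *Oprk1* at 0.811 ± 0.201 and *Oprm1*, the µ-opioid receptor, at 0.382 ± 0.111 TPM, the last above only 0.98% of the genes tested. *Crhr2* exceeded *Oprk1* in 7 of 8 libraries, and each other gene exceeded the next in all 8 libraries. The order of *Crhbp* and *Oprl1* depended on the length used, since the longest transcript in place of all exons gave 50.4 and 50.9 TPM. *Oprm1* has 31 annotated transcripts, and its level was 1.02 TPM with the longest transcript.

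**Figure D1:**
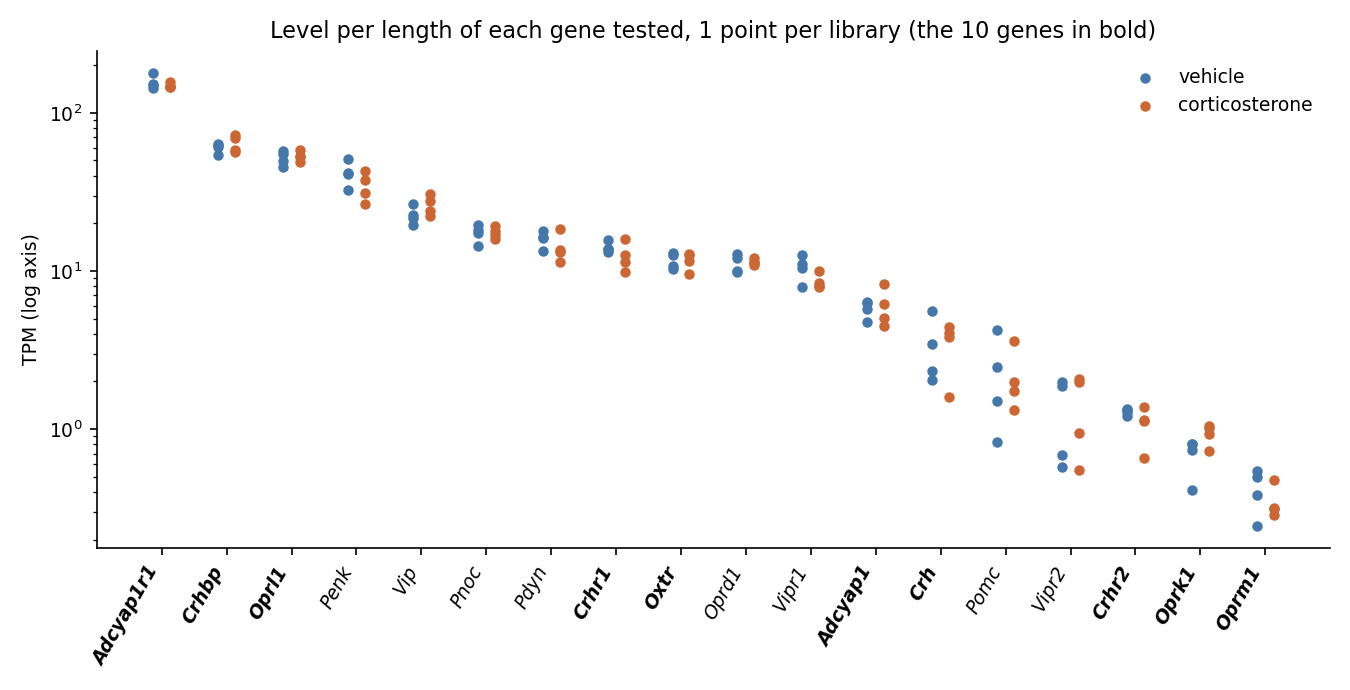
Level of the 10 genes (bold) and of 8 related peptide and receptor genes in TPM on a log axis, 1 point per library, with vehicle in blue and corticosterone in orange, ordered by mean level. *Adcyap1r1* at 152.6 TPM heads the order and *Oprm1* at 0.382 TPM ends it, and in each gene the points of the groups overlap.

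The comparison of corticosterone with vehicle asks whether the transcripts of these systems differed 3 h after a corticosterone injection. None of the 10 genes was differentially expressed. edgeR called 0 of 10 at an adjusted p under 0.05, where the background was 0.00624% of 16018 genes tested, and 0 of 10 at an unadjusted p under 0.05, where the background was 9.03%. DESeq2, with a background of 0.374%, and limma-voom, with a background of 0.00624%, also called 0 of 10. The values of the 2 groups overlapped in all 10 genes, while 3.66% of all genes tested had groups that did not overlap. The log2 fold change was positive in 5 genes and negative in 5, with a median of 0.0146, against 0.00357 over all genes tested. The median size of the change was 0.0741 on the log2 scale in the 10 genes and 0.116 in all genes tested. The width of the intervals differed between the genes. The 95% interval of the fold ran from 0.856 to 1.07 for *Adcyap1r1*, from 0.901 to 1.16 for *Oprl1*, from 0.921 to 1.22 for *Crhbp* and from 0.838 to 1.19 for *Oxtr*. It ran from 0.594 to 1.79 for *Crh* and from 0.519 to 1.33 for *Oprm1*, so that changes inside these ranges could not be told from none.

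**Figure D2:**
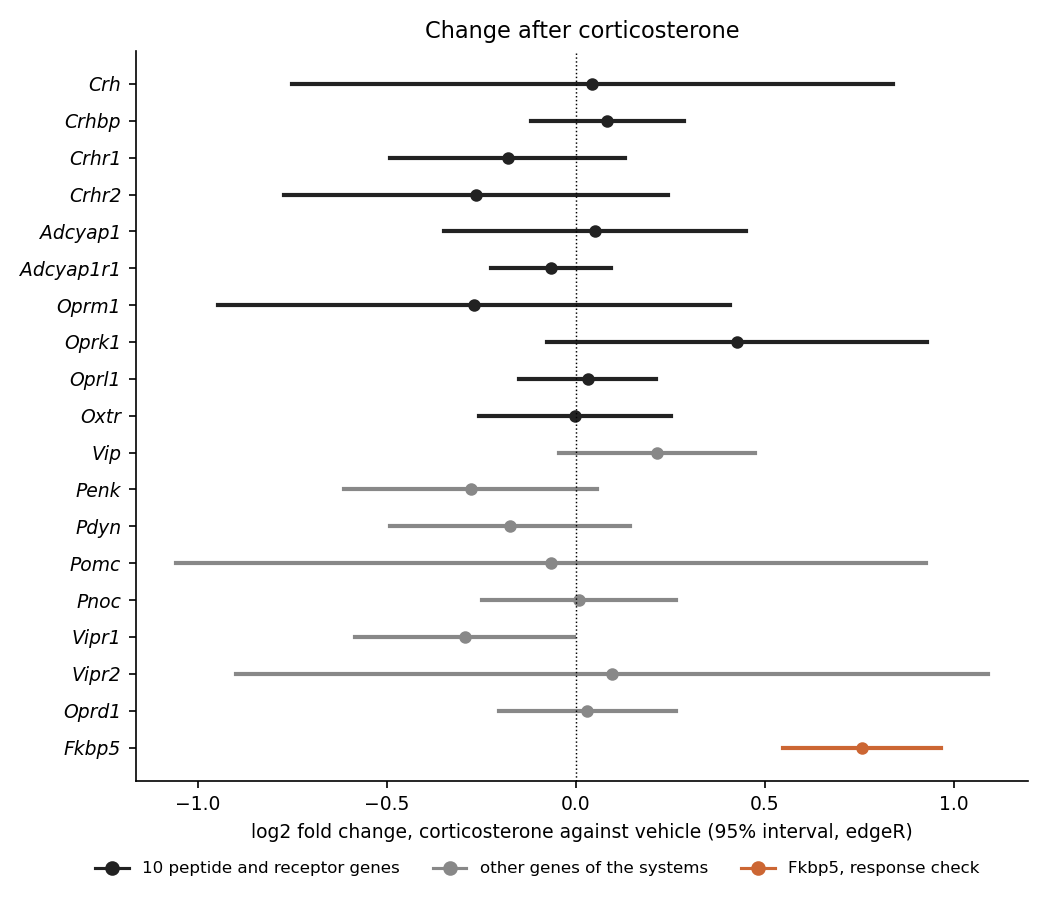
Log2 fold change of each gene, corticosterone against vehicle, with its 95% interval from edgeR, for the 10 genes (black), 8 related genes (grey) and *Fkbp5* (orange). The intervals of all 10 genes cross 0, and that of *Fkbp5*, centred on 0.76, does not.

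In the CRH system, the peptide gene *Crh* (ENSMUSG00000049796, GRCm38 chr3:19693401-19695396, minus strand) was at 0.769, 2.10, 0.868 and 1.29 CPM in vehicle replicates 1 to 4 and at 1.63, 1.42, 1.54 and 0.611 CPM in corticosterone replicates 5 to 8. Vehicle replicate 2 was the highest of all 8 libraries and corticosterone replicate 8 the lowest. These values came from 12 to 41 reads per library, and the coefficient of variation was 48.1% in vehicle and 35.9% in corticosterone libraries, against 20.3% from counting alone. The log2 fold change was 0.04 (SE 0.368, adjusted p = 0.970, edgeR). Leaving out single libraries moved it between -0.14 and 0.41. *Crhbp* (ENSMUSG00000021680, chr13:95431371-95444924, minus strand) was at 27.9, 32.1, 31.0 and 32.3 CPM in vehicle libraries and at 34.7, 36.5, 30.1 and 29.3 CPM in corticosterone libraries. Corticosterone replicates 5 and 6 lay above all vehicle libraries, and replicates 7 and 8 lay inside the vehicle range. Its log2 fold change was 0.08 (SE 0.0935, adjusted p = 0.735). Within a library, the log2 ratio of *Crh* to *Crhbp* reads was -4.60 ± 0.533 in vehicle and -4.62 ± 0.519 in corticosterone libraries, a difference of -0.02 (exact permutation test, two-sided, p = 0.914).

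Of the CRH receptors, *Crhr1* (ENSMUSG00000018634, chr11:104132855-104175523, plus strand) is the high-affinity receptor for CRH itself, whereas *Crhr2* (ENSMUSG00000003476, chr6:55090049-55133016, minus strand) binds the urocortins best. *Crhr1* was at 11.1, 9.67, 9.60 and 9.07 CPM in vehicle and at 10.9, 6.80, 8.89 and 8.14 CPM in corticosterone libraries. Corticosterone replicates 6, 7 and 8 were lower than all 4 vehicle libraries, and replicate 5 was near the highest vehicle value. *Crhr2* was at 1.95, 1.94, 1.84 and 1.75 CPM in vehicle and at 1.99, 1.64, 1.65 and 0.967 CPM in corticosterone libraries. The order was alike, with replicates 6 to 8 lower than every vehicle library and replicate 5 the highest of all. Over all libraries the log2 fold change was -0.18 (SE 0.144, adjusted p = 0.643) for *Crhr1* and -0.26 (SE 0.235, adjusted p = 0.673) for *Crhr2*. Without corticosterone replicate 5 it was -0.31 for *Crhr1* (SE 0.130, unadjusted p = 0.0302, adjusted p = 0.126) and -0.41 for *Crhr2* (SE 0.257, unadjusted p = 0.136, adjusted p = 0.314, edgeR). Neither passed the threshold, in a fit in which 10.2% of all genes tested did and 29% had an unadjusted p under 0.05. These were the 2 of 10 genes whose groups no longer overlapped without that library, both lower, where the background was 24.4% in either direction and 12.4% lower. Without that library edgeR called 0 of the 10 genes, with 7 negative changes and a median of -0.0464 on the log2 scale. *Crhr2* rested on 19 to 39 reads per library, and its spread among vehicle libraries (5.01%) was smaller than counting alone gives (17.4%). *Crhr1* made up 91.6% ± 0.441 of the TPM of both receptors in vehicle and 92.0% ± 2.05 in corticosterone libraries (SD, n = 4 each). The log2 ratio of *Crhr1* to *Crhr2* reads was 2.33 ± 0.0842 in vehicle and 2.42 ± 0.396 in corticosterone libraries, a difference of 0.09 (exact permutation test, two-sided, p = 0.686).

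The promoters of both receptors are shown because they bind related peptides and were the genes whose groups did not overlap without corticosterone replicate 5, a share of the 10 genes close to the background given above. Each is the 250 bases before the RefSeq start, GRCm38.p6, read 5′ to 3′ on the strand of the gene, at chr11:104132531-104132780 (plus) for *Crhr1* and at chr6:55133017-55133266 (minus) for *Crhr2*. The first is GC-rich (74.8% G or C) and the second less so (57.6%).
Crhr1: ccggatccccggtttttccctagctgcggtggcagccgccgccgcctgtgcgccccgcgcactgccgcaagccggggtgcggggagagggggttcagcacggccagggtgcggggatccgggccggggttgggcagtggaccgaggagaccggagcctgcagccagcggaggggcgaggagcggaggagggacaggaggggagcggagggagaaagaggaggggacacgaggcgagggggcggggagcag
Crhr2: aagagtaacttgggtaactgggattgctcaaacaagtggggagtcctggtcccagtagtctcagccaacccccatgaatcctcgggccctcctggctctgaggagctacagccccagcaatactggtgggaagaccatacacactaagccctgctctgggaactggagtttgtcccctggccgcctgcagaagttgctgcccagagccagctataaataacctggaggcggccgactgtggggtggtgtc
Capitals mark matches to the motifs named next, and neither window holds one. RefSeq promoters were matched for 8 of the 10 genes (13 windows), with no entry used for *Crh* and *Oprk1*. They were searched on both strands for the glucocorticoid response element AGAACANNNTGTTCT, for its single arm AGAACA, for the cAMP response element TGACGTCA and for its arm TGACG, where each arm also matches inside the whole element. No window of the 8 genes held a whole element, which 0.00913% and 1.55% of 32851 windows of all genes hold. The arm AGAACA was found in 2 of the 13 windows, both of *Oprl1*, against 16.1% of all windows. TGACG was found in 3 of the 13 windows, 1 of *Crhbp* and 2 of *Adcyap1* that overlap and share 1 match, against 17.8% of all windows.

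In the PACAP system, the peptide gene *Adcyap1* (ENSMUSG00000024256, chr17:93199017-93206537, plus strand) was at 5.18, 6.14, 6.69 and 6.75 CPM in vehicle and at 4.73, 6.57, 8.89 and 5.49 CPM in corticosterone libraries. Corticosterone replicates 7 and 5 were the highest and the lowest of all 8, so the spread was wider after corticosterone (28.2%) than after vehicle (11.8%), and counting alone gives 9.12%. The log2 fold change was 0.05 (SE 0.185, adjusted p = 0.929), and it was -0.15 without replicate 7 and 0.17 without replicate 5. The receptor gene *Adcyap1r1* (ENSMUSG00000029778, chr6:55451978-55501451, plus strand), which encodes the PACAP-preferring receptor PAC1, was at 283, 271, 284 and 330.5 CPM in vehicle and at 269.9, 275, 295 and 277 CPM in corticosterone libraries. Vehicle replicate 4 stood above the other 7 libraries, which lay within 269.9 to 295 CPM. The log2 fold change was -0.07 (SE 0.0735, adjusted p = 0.736), the narrowest interval of the 10 genes. PAC1 made up 92.9% ± 1.42 of the TPM of the PACAP and VIP receptor genes in vehicle and 93.8% ± 0.562 in corticosterone libraries. The log2 ratio of *Adcyap1* to *Adcyap1r1* reads was -5.54 ± 0.162 in vehicle and -5.46 ± 0.333 in corticosterone libraries (difference 0.08, exact permutation test, two-sided, p = 0.743).

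The window before the first RefSeq start of *Adcyap1*, chr17:93198767-93199016 (plus strand, GRCm38.p6), is shown because it holds the arm TGACG, in capitals, beginning 91 bases before the start.
Adcyap1: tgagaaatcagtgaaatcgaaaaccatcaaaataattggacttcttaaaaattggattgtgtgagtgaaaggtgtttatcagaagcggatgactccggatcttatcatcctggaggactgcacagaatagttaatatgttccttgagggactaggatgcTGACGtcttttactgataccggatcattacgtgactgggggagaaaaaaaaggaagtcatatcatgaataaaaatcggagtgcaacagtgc
*Adcyap1* is a gene known to be induced by cAMP, and its own receptor signals through cAMP. The match is a description of the letters and was not tested for binding.

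Among the opioid receptors, the nociceptin receptor *Oprl1* (ENSMUSG00000027584, chr2:181715016-181720985, plus strand) was at 48.9, 58.8, 52.8 and 60.9 CPM in vehicle and at 60.7, 56.3, 52.5 and 56.8 CPM in corticosterone libraries. All 4 corticosterone values lay inside the vehicle range. The log2 fold change was 0.03 (SE 0.0838, adjusted p = 0.900). *Oprk1* (ENSMUSG00000025905, chr1:5588466-5606131, plus strand), the κ-opioid receptor that responds to dynorphin, was at 1.08, 2.10, 2.09 and 1.91 CPM in vehicle and at 2.60, 2.38, 2.74 and 1.93 CPM in corticosterone libraries. Corticosterone replicates 5 to 7 lay above every vehicle library, and replicate 8 lay inside the vehicle range. The log2 fold change of 0.43 was the largest in size of the 10 (SE 0.233, 95% interval -0.08 to 0.93, unadjusted p = 0.0907, adjusted p = 0.550, edgeR), from 21 to 51 reads per library. It was positive under each of the 18 alternatives and smallest in size, among the fits that left out 1 library, without vehicle replicate 1 (0.24). *Oprm1* (ENSMUSG00000000766, chr10:6758506-7038198, plus strand), the receptor of β-endorphin, enkephalins and morphine, was at 0.564, 0.869, 1.12 and 1.24 CPM in vehicle and at 0.713, 1.08, 0.713 and 0.661 CPM in corticosterone libraries. The vehicle libraries spanned the whole range of the corticosterone libraries. With 11 to 24 reads per library, its spread within groups (31.5% and 24.2%) was near that of counting alone (24.5%), and its log2 fold change was -0.27 (SE 0.313, adjusted p = 0.743). A stretch of 96 bp of its exons overlaps *Ipcef1* on the opposite strand, and the strand setting of the counting is not given in the sources used here.

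The log2 ratio of *Oprk1* to *Oprm1* reads was 0.82, 1.18, 0.84 and 0.58 in vehicle libraries and 1.73, 1.07, 1.80 and 1.41 in corticosterone libraries. Only corticosterone replicate 6 lay below the highest vehicle library. The means were 0.86 ± 0.244 and 1.50 ± 0.332, a difference of 0.65 (exact permutation test, two-sided, p = 0.0571, where the smallest p that 4 against 4 can give is 0.0286). Adjusted over the 4 ratios tested, p was 0.229 for this ratio and 0.914 for the other 3. Within the opioid receptor family by TPM, *Oprl1* made up 80.9% ± 1.82 in vehicle and 80.7% ± 0.896 in corticosterone libraries. The δ-opioid receptor *Oprd1* made up 17.4% ± 1.74 and 17.4% ± 0.661. *Oprk1* made up 1.07% ± 0.247 and 1.42% ± 0.232, and *Oprm1* 0.639% ± 0.164 and 0.528% ± 0.131, with overlapping groups in all 4 genes.

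The third of the 3 *Oprl1* windows, chr2:181715440-181715689 (plus strand, GRCm38.p6), is shown because it holds the arm of the glucocorticoid response element on the antisense strand, printed in capitals as its reverse complement TGTTCT, beginning 64 bases before that start. The first window of the gene holds another such match beginning 206 bases before its start.
Oprl1: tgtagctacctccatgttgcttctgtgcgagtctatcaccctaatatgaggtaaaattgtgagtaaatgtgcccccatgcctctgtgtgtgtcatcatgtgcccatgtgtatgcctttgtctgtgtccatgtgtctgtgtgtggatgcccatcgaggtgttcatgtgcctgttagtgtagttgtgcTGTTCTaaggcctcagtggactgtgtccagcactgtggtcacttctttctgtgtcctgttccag
*Oprl1*, the gene with these matches, had a fold interval of 0.901 to 1.16 after corticosterone. The matches describe the letters only, and neither binding nor any bearing on this interval was tested.

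In the oxytocin system, *Oxtr* (ENSMUSG00000049112, chr6:112473683-112489943, minus strand) encodes the receptor through which oxytocin acts on hippocampal pyramidal cells and interneurons. It was at 14.2, 14.6, 17.2 and 17.5 CPM in vehicle and at 17.2, 15.6, 13.1 and 17.5 CPM in corticosterone libraries. The groups covered nearly the same range, with corticosterone replicate 7 the lowest of all. The group means were 15.9 ± 1.72 and 15.8 ± 2.03 CPM (SD, n = 4 each), with an adjusted p of 0.996 (edgeR). The 95% interval of the log2 fold change was -0.26 to 0.25.

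**Figure D3:**
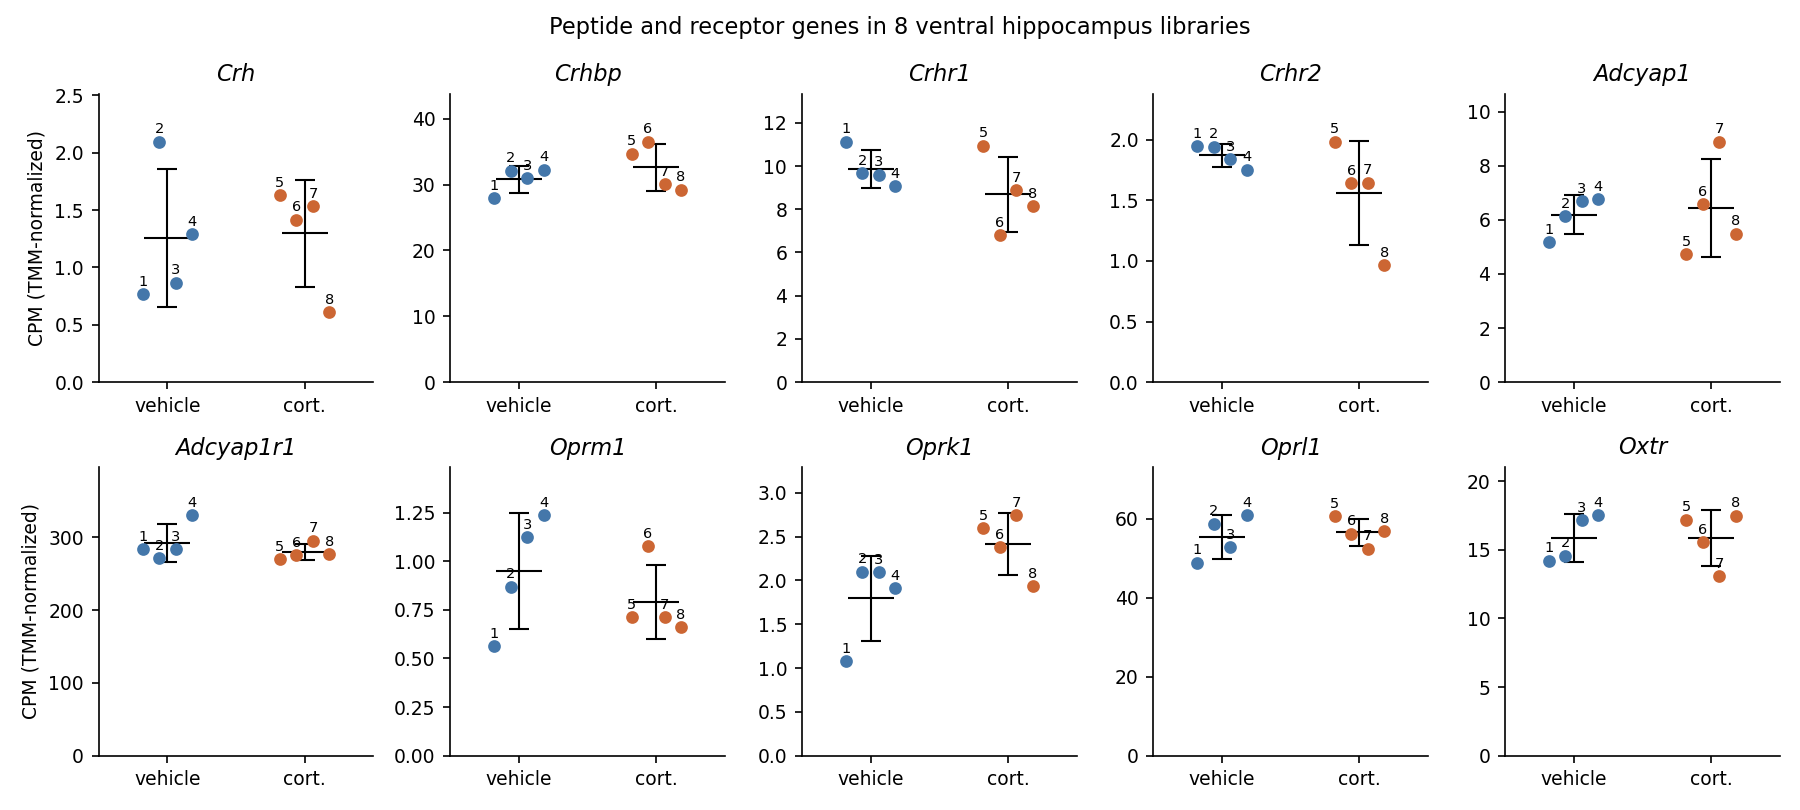
CPM of each of the 10 genes in the 8 libraries, 1 point per library with its replicate number, vehicle in blue and corticosterone in orange, with the mean and SD of each group (n = 4). The groups overlap in every panel, and in *Crhr1* and *Crhr2* corticosterone replicate 5 stands above replicates 6 to 8.

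The other ligands of these systems were measured in the same libraries, and 5 of 10 passed the filter on low counts. Oxytocin itself (*Oxt*) had 5 reads in 2 vehicle libraries, and vasopressin (*Avp*) had 4 reads in 3 libraries, so the ligands of *Oxtr* were close to undetected in this tissue, where they arrive from hypothalamic axons. The urocortins, the preferred ligands of *Crhr2*, were likewise near or below detection. *Ucn* and *Ucn3* had 0 reads in 8 libraries, which allows a level of up to 0.0196 CPM, and *Ucn2* had 5 reads. The opioid precursors were present at 38.1 TPM for proenkephalin (*Penk*), 17.4 for pronociceptin (*Pnoc*), 15.0 for prodynorphin (*Pdyn*) and 2.20 for *Pomc*, and *Vip* was at 24.3 TPM. *Penk* also shares exon bases with a gene on the opposite strand. None of these 5 was called by edgeR or at an unadjusted p under 0.05, with log2 fold changes of -0.28 for *Penk* (adjusted p = 0.556), 0.01 for *Pnoc* (0.982), -0.17 for *Pdyn* (0.657), -0.07 for *Pomc* (0.964) and 0.21 for *Vip* (0.557). *Penk* ran from 15.1 to 23.7 CPM in vehicle and from 12.5 to 19.5 CPM in corticosterone libraries, and its 3 lowest libraries held 2 corticosterone libraries and 1 vehicle library. Without corticosterone replicate 5, *Penk* was at -0.39 (unadjusted p = 0.0166, adjusted p = 0.0920) and *Vip* at 0.29 (unadjusted p = 0.0182, adjusted p = 0.0961, edgeR), and 0 of the 5 peptide genes were called, where the background was 10.2%.

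Of the 6 other receptors, 3 passed the filter and 0 were called by edgeR. *Vipr1*, which binds VIP and PACAP alike, was at 13.1, 20.7, 17.1 and 18.1 CPM in vehicle and at 16.1, 12.9, 13.9 and 13.4 CPM in corticosterone libraries. Vehicle replicate 1 was as low as the corticosterone libraries. Its log2 fold change was -0.29 (SE 0.134, unadjusted p = 0.0469, adjusted p = 0.545, edgeR), and it passed the threshold only in the fit without both vehicle replicate 1 and corticosterone replicate 5 (-0.48, adjusted p = 0.0269). In that fit edgeR called 1103 genes, and adjusted p over the fits that left out 1 library ranged from 0.0870 to 0.919. *Vipr2* was at 0.09 (adjusted p = 0.946) and *Oprd1* at 0.03 (adjusted p = 0.927) on the log2 scale. The vasopressin receptors *Avpr1a* and *Avpr1b* had 26 and 24 reads over 8 libraries and *Avpr2* had 0, so they were not tested.

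Downstream of the receptors, 34 signalling genes (G proteins, adenylyl cyclases, phospholipases C, kinases, genes of receptor desensitization, GIRK potassium channels and cAMP-responsive transcription factors) were all tested, and edgeR called 0 (0 at an unadjusted p under 0.05), with 14 positive and 20 negative changes and a median of -0.0235. The smallest p in each direction belonged to *Gnai1*, an inhibitory Gα subunit (log2 fold change 0.16, adjusted p = 0.545), and *Gna11*, a Gq-class subunit (-0.19, adjusted p = 0.545). Both passed the threshold without corticosterone replicate 5, at 0.22 (adjusted p = 0.0487) and -0.29 (adjusted p = 0.0254), in a fit that called 5 of the 34 genes (14.7%) and 10.2% of all genes tested. Of 30 receptors for other neuropeptides, 23 were tested and 0 were called, with 2 at an unadjusted p under 0.05, both higher. They were led by *Mc4r*, the melanocortin receptor (0.32, adjusted p = 0.539), and in the other direction by *Sstr3*, a somatostatin receptor (-0.24, adjusted p = 0.601). *Sstr3* was the 1 of 23 that passed without corticosterone replicate 5 (-0.43, adjusted p = 0.0362). Of 16 genes for peptide processing and release, 0 were called, with 10 positive and 6 negative changes. *Scg5*, the chaperone of prohormone convertase PC2, was at 0.14 (adjusted p = 0.545), and *Ece1*, an endopeptidase, at -0.16 (adjusted p = 0.558).

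The value of each gene depended on single libraries to different degrees. The direction was kept under every library left out in *Crhbp* (0.03 to 0.13), *Crhr1* (-0.31 to -0.08), *Crhr2* (-0.41 to -0.09), *Adcyap1r1* (-0.10 to -0.01), *Oprm1* (-0.45 to -0.12) and *Oprk1* (0.24 to 0.52), all as log2 fold changes. *Crh*, *Adcyap1*, *Oprl1* and *Oxtr* crossed 0. Without corticosterone replicate 5, the genes other than the CRH receptors were at -0.09 for *Crh*, 0.05 for *Crhbp*, 0.17 for *Adcyap1*, -0.05 for *Adcyap1r1*, -0.22 for *Oprm1*, 0.39 for *Oprk1*, -0.0047 for *Oprl1* and -0.04 for *Oxtr*. Over the 18 alternatives and 10 genes, 180 fits in all, 0 passed the threshold. *Crhr1* moved towards 0 at -0.03 with 1 surrogate variable and at -0.06 after removal of the trend with GC content and length. Both corrections were estimated from the same libraries, and how much of a treatment difference they took up was not tested.

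**Figure D4:**
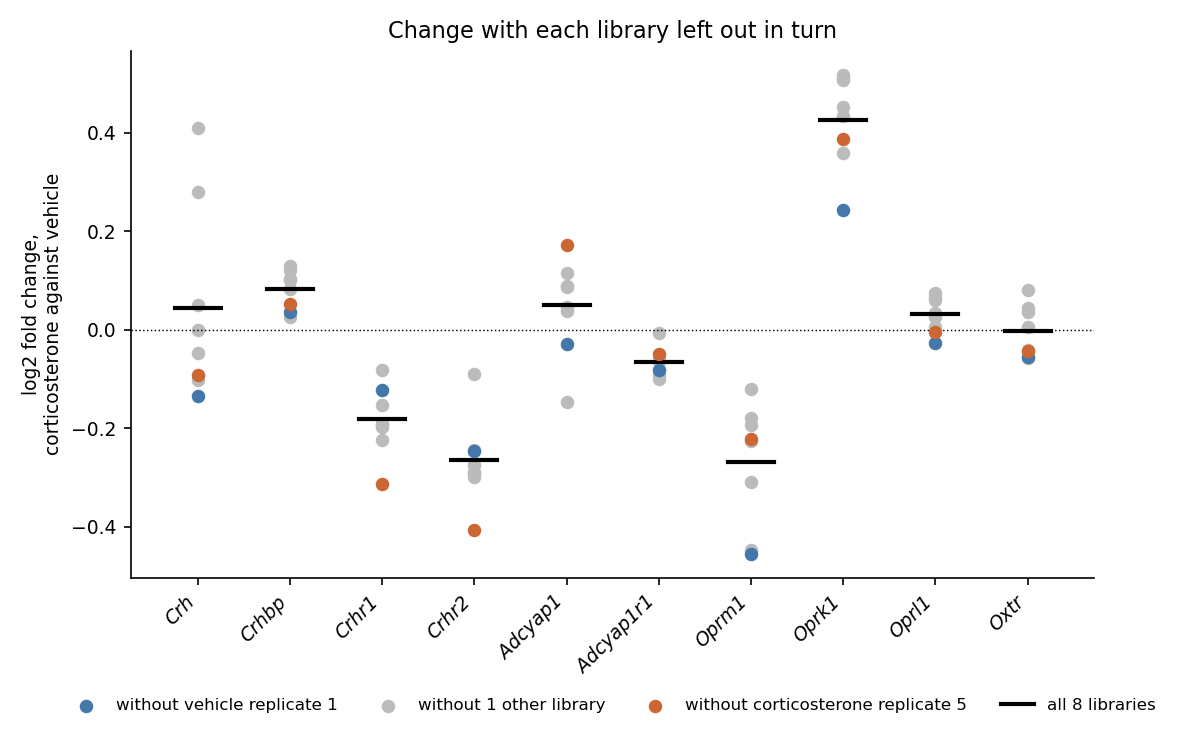
Log2 fold change of each of the 10 genes, corticosterone against vehicle, with each library left out in turn (points) and with all 8 libraries (black bars). Leaving out corticosterone replicate 5 (orange) gives the lowest value for *Crhr1* (-0.31) and *Crhr2* (-0.41), and leaving out vehicle replicate 1 (blue) the lowest for *Oprk1* (0.24).

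For the gene with the smallest p in each system, the genes whose residuals followed it best over the 8 libraries were listed, as a description. *Crhr1* was followed by *Gm15772* (Pearson r = 0.969), *Zfp787* (0.968) and *Man2b1* (0.967), and 59 of 12944 genes had an r above 0.9. *Adcyap1r1* was followed by *Map3k13* (0.995), *1810014B01Rik* (0.981) and *Atf1* (0.971), with 55 genes above 0.9. Vehicle replicate 4, at 330.5 CPM, stood above all other libraries in *Adcyap1r1*, and its weight in these r was not tested. *Oprk1* was followed by *Sec1* (0.973), *Sap30bp* (0.970) and *Cdh13* (0.962), with 25 genes above 0.9. *Oxtr* was followed by *Htr2a*, a serotonin receptor (0.950), *Cdh11* (0.946) and *Galm* (0.945), with 17 genes above 0.9. Each r rests on 8 libraries less their group means, so on fewer independent values, and on the best of about 12944 genes compared. The values share depth and library composition.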

How the data were processed

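Whole-tissue RNA of the ventral hippocampus was sequenced as stranded 100-bp paired-end libraries on the DNBseq platform, 4 vehicle and 4 corticosterone mice. The authors aligned the reads to mm10 with GSnap and deposited raw counts per gene from HTSeq-count, version 0.6.0. The annotation release and strand setting are not given in the sources used here. The 5 summary rows that name no gene (13.7% to 15.4% of each column) were left out, and 0 columns were unused.

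Genes were named with GENCODE M21 (50376 of 50686 identifiers). The 10 genes, the gene lists and the naming rule were chosen with earlier results of these data known. The named genes were the 10 genes, all other peptides and receptors of the 4 systems, the smallest p in each direction of each other list, 4 glucocorticoid response genes, and the 3 genes most alike to 1 gene per system (mean count of at least 50). Of the response genes, *Tsc22d3* was at 0.46 (adjusted p = 0.386, and 0.0486 without corticosterone replicate 5), *Sgk1* at 0.42 (0.547) and *Per1* at 0.03 (0.893) on the log2 scale (edgeR). *Sgk1* was at 143.1 CPM in vehicle replicate 1, above the other vehicle libraries (54.4 to 75.5 CPM) and the corticosterone libraries (111 to 114.4 CPM). That library was also the highest vehicle library for *Fkbp5* and *Tsc22d3*.

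Counts were tested with edgeR 4.0.16 in R 4.3.3 (filterByExpr, TMM, quasi-likelihood test, Benjamini-Hochberg over 16018 genes, threshold 0.05). The study used DESeq2, run here (1.42.0) as an alternative with limma 3.58.1 (voom) and sva 3.50.0. CPM are TMM-normalized, TPM used the union of exons, and ratios used a prior count of 2. Intervals are at 95%. The 8 mice are separate animals, and no source names a batch. Fits were run on simulated counts with known changes and a common dispersion. The simulation held no library like corticosterone replicate 5, so it does not show how the fits behave with such a library. The single cell data of the study were not analysed here.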

Additional observations from a re-analysis of the deposited data

Results flagged for a closer look

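There were 5 values that stood far from the other 3 of their group, among 70 sets of 4 libraries examined, where chance gives about 1 in 20, or 3.5 in all. One concerned the genes followed here. *Oprm1* in corticosterone replicate 6 was at 1.08 CPM, against 0.661 to 0.713 CPM in the other corticosterone libraries, from 19 reads against 13 to 14. The same library set the overlap of the *Oprk1* to *Oprm1* ratio.

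The other 4 were properties of the libraries. The share of ambiguous reads was 1.40% in vehicle replicate 4, against 1.64% to 1.67% in the other vehicle libraries, and 1.48% in corticosterone replicate 5, against 1.25% to 1.28% in the other corticosterone libraries. The share of reads not aligned was 6.35% in vehicle replicate 3, against 7.06% to 7.13%. The score on the first principal component was -19.2 in corticosterone replicate 5, against 18.9 to 23.5. *Crhr1* and *Crhr2* were higher in that library than in the other corticosterone libraries, and the part of its composition in their values was not tested.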

How the results depend on the processing

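None of the 10 genes passed the threshold under any of the 18 alternatives, and 160 of the 180 values kept their direction. The other 20 changed sign, in *Crh*, *Adcyap1*, *Oprl1* and *Oxtr*. Without vehicle replicate 1 and corticosterone replicate 5 together, the log2 fold change was -0.268 for *Crh*, -0.0603 for *Oprl1*, 0.0760 for *Pomc*, -0.112 for *Pnoc*, -0.0352 for *Oprd1* and -0.0858 for *Per1*. With 1 surrogate variable it was -0.119 for *Adcyap1*, 0.0185 for *Oxtr* and 0.336 for *Pomc*, with the GC and length trend removed -0.0472, 0.0228 and 0.0806, with upper-quartile normalization 0.00108 for *Oxtr* and with limma-voom 0.0810 for *Pomc*. The cause was not tested.

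With single libraries left out, the range was -0.14 to 0.41 for *Crh* (negative without vehicle replicates 1 or 3 or corticosterone replicates 5, 6 or 7), -0.15 to 0.17 for *Adcyap1* (negative without vehicle replicate 1 or corticosterone replicate 7), -0.0273 to 0.0752 for *Oprl1* (negative without vehicle replicate 1 or corticosterone replicate 5) and -0.0567 to 0.0797 for *Oxtr* (positive without vehicle replicates 3 or 4 or corticosterone replicates 6 or 7). It was -0.42 to 0.43 for *Pomc*, -0.0730 to 0.0632 for *Pnoc*, -0.16 to 0.38 for *Vipr2*, -0.0237 to 0.0956 for *Oprd1* and -0.0591 to 0.0766 for *Per1*. The log2 ratio differed by -0.16 to 0.23 for *Crh* to *Crhbp*, by -0.0844 to 0.236 for *Crhr1* to *Crhr2*, by -0.0585 to 0.197 for *Adcyap1* to *Adcyap1r1* and by 0.55 to 0.79 for *Oprk1* to *Oprm1* (unadjusted p by the exact permutation test 0.0286 to 0.0857, the lowest, without corticosterone replicate 6, being the smallest that 4 against 3 can give).

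The count of differentially expressed genes was 1 in edgeR, 63 in DESeq2, 79 with no filter on low counts, 0 with at least 10 counts in every sample (1330 at an unadjusted p under 0.05), 2 with 1 surrogate variable, 21 with the trend removed and 1103 without vehicle replicate 1 and corticosterone replicate 5. It ran from 0 to 1651 with single libraries left out, with 1651 without corticosterone replicate 5 and 19 without vehicle replicate 1. With the longest transcript as the length, levels were 132.2 TPM for *Adcyap1r1*, 50.4 for *Crhbp*, 10.65 for *Crhr1*, 9.52 for *Oxtr*, 1.66 for *Crhr2*, 1.27 for *Oprk1* and 1.02 for *Oprm1*. *Crh*, *Crhr2*, *Oprk1* and *Oprm1* rested on 11 to 51 reads per library, with a counting error of 15.8% to 24.5%, and the spread of *Crh* exceeded its counting error in both groups. No paired analysis was possible because no replicate number is shared between the groups (1 to 4 against 5 to 8).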
